A study of Mus musculus with 6 samples.

Results

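Rhox1, Rhox6 and Rhox9 are X-linked homeobox genes of the mouse reproductive homeobox (Rhox) cluster, and they are 3 of the 19713 genes in a table of RNA sequencing from mouse embryonic stem (ES) cells. They were chosen by symbol, with their levels in the mutants against wild type already known, so those differences are described here without a test. The cells had been derived from C57Bl/6 blastocysts and were of 3 genotypes with 2 libraries each: wild type (WT), THAP1 C54Y, homozygous for a missense change (Thap1 C54Y/C54Y), and the THAP1-null line (THAP1 -/-, KO), which lacks exon 2 (Thap1 ΔExon2). THAP1 binds DNA through a zinc finger of the THAP type and regulates transcription, mutations in it cause an inherited dystonia, and cysteine 54 lies in its DNA-binding domain. All lines grew on gelatin and irradiated mouse embryonic fibroblasts, so feeder RNA can be present in every library, in serum with leukemia inhibitory factor at 1000 units/ml. The sources do not say whether each genotype was 1 clone, whether replicates were separate cultures or what the replicate number marks, so p-values measure only the spread between these libraries.

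Homeobox genes encode transcription factors that bind DNA through a homeodomain. The Rhox genes of the mouse lie in a row on the X chromosome and are expressed mainly in the testis, epididymis, ovary and placenta, in germ cells and in the somatic cells that support them. In cells outside these tissues much of the cluster is kept silent, with methylation of promoter DNA as a main mechanism, and many germline genes are repressed in ES cells in a like way. Rhox6 and Rhox9 are close relatives, known from the placenta and from early germ cells, and Rhox1 is a testis-expressed gene at one end of the row.

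Library depth was 31774656 to 46772996 reads, with 17061 to 18481 genes detected. The ES markers were present in every library, with Pou5f1 at 32384 to 122969, Sox2 at 11159 to 19823 and Nanog at 7539 to 26827 normalized counts (reads divided by the library's size factor, as deposited). Thap1, the targeted gene, averaged 567 ± 190 normalized counts in WT (SD, n = 2, as throughout), 2393 ± 198 in C54Y and 1831 ± 204 in KO; a count over the whole gene checks neither the missense change nor the loss of exon 2. The replicate numbers stood far apart in composition: the pre-ribosomal transcript Rn45s took 0.472% to 0.600% of reads in the replicate 1 libraries and 1.49% to 2.05% in the replicate 2 libraries. Libraries with the same number also deviated together from their group means, so values are given within each number, and calls come from limma with the replicate number as a block and Benjamini-Hochberg adjustment unless stated otherwise. Without the block limma called 0 genes in each of the 3 genotype comparisons (0.0% of 15287 tested genes), with 1049 (KO against WT, 6.86%), 252 (C54Y against WT, 1.65%) and 207 (KO against C54Y, 1.35%) at an unadjusted p under 0.05. The unblocked counts were 0 in each by edgeR and 235, 28 and 3 by DESeq2. With the block limma called 16.3% of tested genes in KO against WT (8.9% up and 7.41% down), 1.36% in C54Y against WT (0.962% up and 0.399% down) and 0.19% in KO against C54Y (0.0458% up and 0.144% down), and every genotype call named below rests on it. In bulk RNA, more cells expressing a gene and more RNA per cell cannot be told apart.

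The sequences of Rhox6 and Rhox9 matter because reads from one can fall on the other. Their coding sequences in GENCODE vM21 (GRCm38) were 681 bases each and 90.6% identical, with 64 differences and a longest identical stretch of 161 bases. Of all 50-base windows in the Rhox6 transcript (1010 bases), 16.5% also occurred in Rhox9, and 159 of the 833 windows of the 882-base Rhox9 transcript occurred in Rhox6. Rhox1 shared 0 of its 834 windows with another gene, and its coding sequence matched those of Rhox6 and Rhox9 at 53.8% and 53.6% of aligned bases. Most of the transcript therefore tells Rhox6 from Rhox9, while reads from the shared stretches cannot be assigned with certainty. The 120 coding bases in which the pair differs most (coding positions 343 to 462 of each, 24 differences in capitals, 5′ to 3′) are shown here.
Rhox6: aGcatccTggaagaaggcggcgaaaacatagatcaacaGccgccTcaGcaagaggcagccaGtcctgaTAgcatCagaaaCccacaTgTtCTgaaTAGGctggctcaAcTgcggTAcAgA
Rhox9: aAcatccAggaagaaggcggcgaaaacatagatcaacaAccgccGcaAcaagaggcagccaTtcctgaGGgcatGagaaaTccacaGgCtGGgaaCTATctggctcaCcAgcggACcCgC

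Rhox1 had the lowest level of the 3 in WT and, as the ratio of the highest to the lowest library, the widest range. In replicate 1 it stood at 18.7 normalized counts in WT (25 reads), 146 in C54Y and 619 in KO. In replicate 2 the values were 87.5 in WT (68 reads), 944 in C54Y and 1591 in KO. Both mutants lay above both WT libraries without overlap, whereas the KO and C54Y libraries overlapped. Group means were 53.1 ± 48.7 in WT, 545 ± 565 in C54Y and 1105 ± 687 in KO, with 1 library of each replicate number in every group. Within replicate 1 the KO level was 33.2 times that of WT (95% exact binomial interval 22.3 to 51.6, counting error only), and within replicate 2 it was 18.2 times (14.2 to 23.6). The C54Y level was 7.79 times (5.14 to 12.3) and 10.8 times (8.41 to 14.1) that of WT. On the scale used for fitting, log2 of the normalized count plus 2, Rhox1 was 4.53 higher in KO than in WT (4.91 and 4.15 in replicates 1 and 2) and 3.12 higher in C54Y (2.83 and 3.40).

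Rhox6 was already well detected in WT. It stood at 307 normalized counts in WT, 693 in C54Y and 959 in KO in replicate 1. In replicate 2 it stood at 943, 3980 and 4245. The KO libraries lay just above both WT libraries (959 against 943), while C54Y replicate 1 fell below WT replicate 2, so the C54Y and WT libraries overlapped and the order WT, C54Y, KO held within each replicate number. Means were 625 ± 450, 2337 ± 2325 and 2602 ± 2323. The KO level was 3.12 times (2.79 to 3.51) that of WT in replicate 1 and 4.50 times (4.15 to 4.88) in replicate 2. For C54Y the ratios were 2.26 (2.01 to 2.54) and 4.22 (3.89 to 4.58). The log2 differences from WT were 1.90 in KO (1.64 and 2.17) and 1.62 in C54Y (1.17 and 2.07).

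Rhox9 followed Rhox6 closely. It stood at 269 normalized counts in WT, 743 in C54Y and 943 in KO in replicate 1, and at 724, 3337 and 3715 in replicate 2. Both mutants lay above both WT libraries, the closest pair being C54Y replicate 1 at 743 and WT replicate 2 at 724. Means were 497 ± 322, 2040 ± 1835 and 2329 ± 1960. The KO level was 3.51 times (3.11 to 3.96) and 5.13 times (4.68 to 5.62) that of WT, and the C54Y level 2.76 times (2.45 to 3.12) and 4.61 times (4.20 to 5.06). The log2 differences were 2.08 in KO (1.80 and 2.36) and 1.83 in C54Y (1.46 and 2.20). The ratio of Rhox6 to Rhox9 stayed between 0.933 and 1.30 over the 6 libraries, while that of Rhox6 to Rhox1 went from 16.4 and 10.8 in WT to 1.55 and 2.67 in KO.

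**Figure D1:**
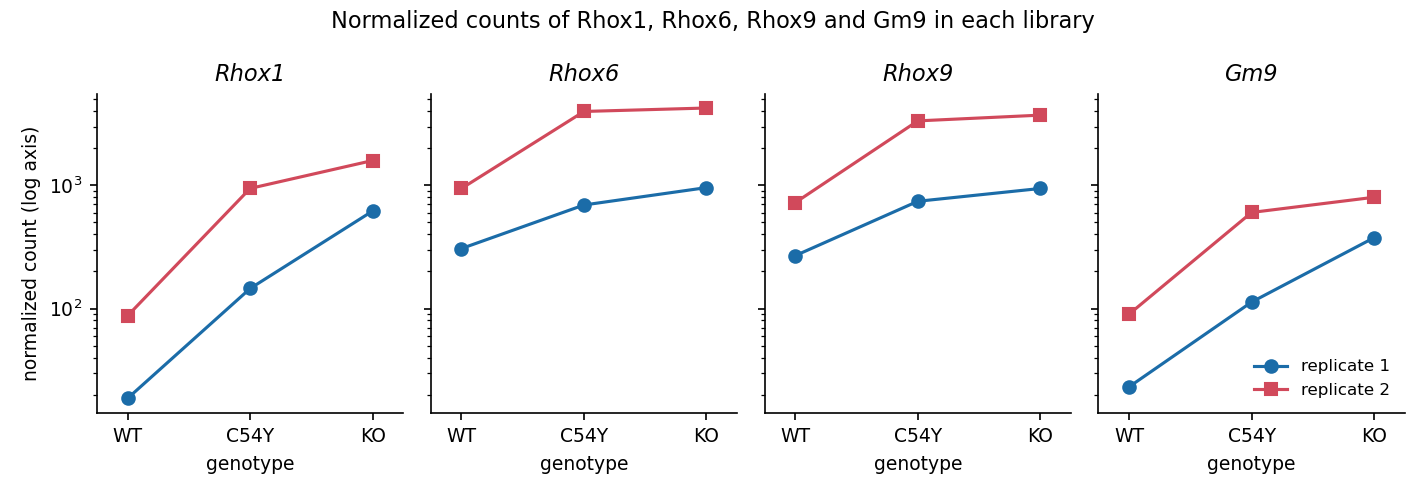
Normalized counts (log axis) of Rhox1, Rhox6, Rhox9 and the neighbouring gene Gm9 in each library by genotype, with a line joining the libraries of 1 replicate number and no error bars since each point is 1 library. Within each number the order was WT, C54Y, KO for all 4 genes, and Rhox1 went from 18.7 to 619 in replicate 1 and from 87.5 to 1591 in replicate 2.

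All 3 genes stood above WT in both KO libraries without overlap, as did 13.6% of tested genes, and Rhox1 and Rhox9 did so in C54Y, as did 9.3% of tested genes. All 3 stood above WT within both replicate numbers in KO, as did 36.1% of tested genes, and in C54Y, as did 33.5%. These counts use the comparison by which the genes were chosen. Per kilobase of transcript (lengths from GENCODE vM21) the order of the 3 genes can be read on 1 scale. In WT replicate 1 Rhox1 stood at 21.1 normalized counts per kilobase, and Rhox6 and Rhox9 stood at 304 and 305. In KO replicate 2 the values were 1800 for Rhox1, 4200 for Rhox6 and 4210 for Rhox9. Rhox1 was lowest in every library and Rhox6 and Rhox9 were near equal, but a second Rhox9 transcript of 2422 bases would put Rhox9 at 111 and 1530 in these libraries, so the place of Rhox9 depends on which transcript was counted.

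Whether the deletion and the missense change left the genes at different levels was not part of the choice of genes and was tested. Rhox1 was higher in KO than in C54Y by 1.41 on the log2 scale (2.07 in replicate 1 and 0.75 in replicate 2), and it missed the threshold both without the block (adjusted p = 1.0, 95% confidence interval -1.67 to 4.49) and with it (adjusted p = 0.0976, interval 0.70 to 2.12, not adjusted). The ratio of KO to C54Y was 4.26 (3.65 to 4.98) within replicate 1. It was 1.68 (1.54 to 1.85) within replicate 2, and the size of the gap thus differed between the numbers beyond counting error. DESeq2 with the block called the Rhox1 difference (1.42, adjusted p = 0.000338), and limma with the block also called it without WT replicate 1 (adjusted p = 1.98e-05), WT replicate 2 (0.00466), C54Y replicate 2 (0.0455) or KO replicate 2 (0.000118). Rhox6 differed by 0.28 (0.47 and 0.09), with a blocked interval of -0.21 to 0.77 and an adjusted p of 0.582 by limma. Rhox9 differed by 0.25 (0.34 and 0.15), with an interval of -0.21 to 0.71 and an adjusted p of 0.601. The blocked intervals leave room for a Rhox6 or Rhox9 level up to 0.77 or 0.71 higher in KO, and do not show equal levels. With the block, leaving out C54Y replicate 1 brought the differences to -0.04 for Rhox6 and 0.02 for Rhox9, and leaving out KO replicate 2 to 0.24 and 0.16. Of all tested genes 0.19% were called between KO and C54Y with the block, and 0 of the 3 Rhox genes were. All 3 stood higher in KO than in C54Y within both replicate numbers, as did 33.3% of tested genes, and 0 of the 3 did so without overlap, against 8.64% of tested genes.

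**Figure D2:**
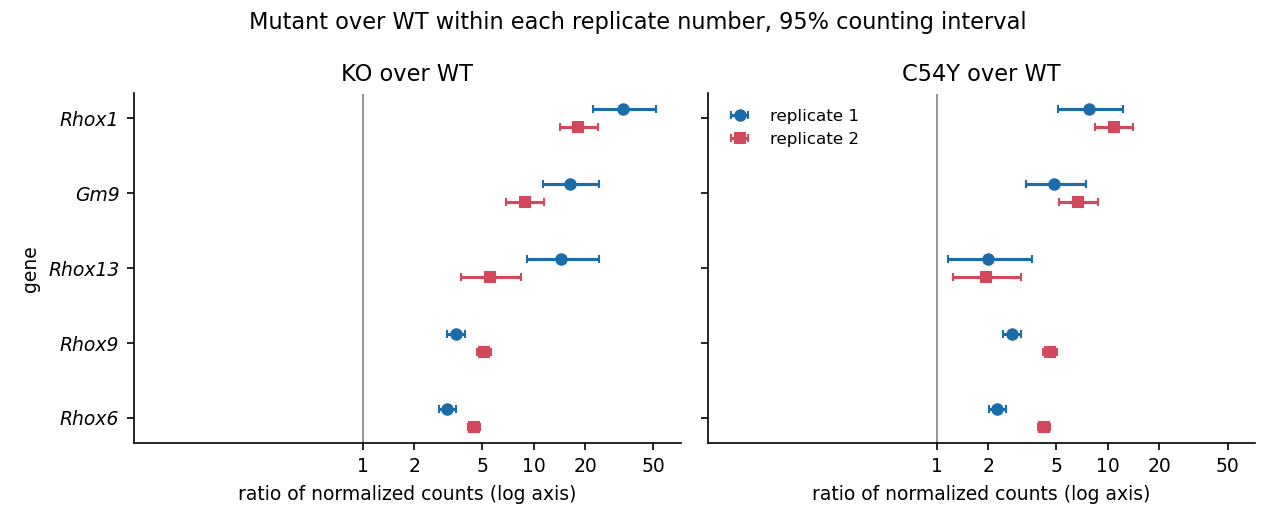
Ratio of the mutant to the WT normalized count (log axis) within replicate 1 (circles) and replicate 2 (squares), with 95% exact intervals that cover counting error only, for 5 genes. Rhox1 lies farthest from 1 in both panels (33.2 and 18.2 in KO), and Rhox13 lies far from 1 in KO (14.4 and 5.55) but near 2.00 in C54Y.

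The levels of these genes also differed widely between the replicate numbers. Rhox1 was higher in the replicate 2 libraries by 2.05 ± 0.26 (log2 difference ± SE with genotype in the fit, limma adjusted p = 0.00011), with 2.11 in WT, 2.68 in C54Y and 1.36 in KO. Rhox6 was higher by 2.09 ± 0.18 (adjusted p = 1e-05), with 1.61, 2.52 and 2.14 in the 3 genotypes. Rhox9 was higher by 1.85 ± 0.17 (adjusted p = 1.4e-05), with 1.42, 2.17 and 1.98. The direction was the same in 3 of 3 genotypes for each gene. Such a difference was common: 64.9% of tested genes were called between the replicate numbers, and 32.0% were higher in replicate 2. The number moved with library composition (Rn45s, above), with Y-linked reads (116 to 137 in replicate 1 and 17 to 26 in replicate 2 over 6 Y-linked genes) and with Xist, the RNA that silences an X chromosome (117 to 410 against 12.9 to 18.2 normalized counts). Their part in the result was not tested.

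The 3 genes made up most of the signal of the Rhox genes counted here. The table holds 24 Rhox genes, of which 9 passed the filter of 10 normalized counts in 2 libraries and 10 had no more than 3 reads in any library, while 9 of the 33 protein-coding Rhox genes in RefSeq, Rhox5 and Rhox11 among them, were not analysed here. Rhox1, Rhox6 and Rhox9 together took 88.0% to 97.1% of the summed normalized Rhox counts in every library. The share of Rhox1 alone was 3.01% and 4.81% in WT, then 8.84% and 11.1% for C54Y and 21.6% and 16.0% for KO. The 24 Rhox genes counted summed to 620 and 1821 normalized counts in WT, then 1646 and 8511 for C54Y and 2867 and 9964 for KO.

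Beside the 3 there were 6 tested Rhox genes. In 4 of these (Rhox4a, Rhox4e, Rhox4g and Rhox10) neither WT library had more than 1 read, so only the mutant libraries carried them past the filter, and their reads are given without a test. The others were Rhox7 and Rhox13. Rhox7 was below 10 normalized counts in WT replicate 1, so it too passed the filter through the mutant libraries and is given without a test. Rhox13, a gene of male germ cells at the far end of the row, rose in KO. It stood at 14.9, 29.9 and 215 normalized counts in WT, C54Y and KO of replicate 1 and at 39.9, 77.9 and 221 in replicate 2. Its difference was 3.05 ± 0.38 in KO (adjusted p = 0.0018), and the C54Y difference was 0.92 (adjusted p = 0.369). Its KO libraries lay above both C54Y libraries, by 2.12 (adjusted p = 0.0609, which fell below 0.05 when any library but C54Y replicate 1 was left out). Rhox7 also stood higher with the deletion, at 46.0 and 71.3 normalized counts against 5.23 and 14.2 for the WT libraries, a log2 difference of 2.46. With the missense change its libraries held 18.4 and 76.6, a difference of 1.89.

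The other Rhox genes counted were faint. Rhox10, which acts in spermatogonial stem cells, had 1 read in each WT library, 0 and 9 reads in the C54Y libraries, and 33 and 13 in those of KO. Rhox4a had 0 reads in both WT libraries, 11 and 23 reads with the missense change, and 19 and 28 with the deletion. The copies of Rhox4 are near identical (98.3% of the 50-base windows of Rhox4a occurred in other copies), so the counts of single copies are uncertain. Summed over its 7 copies in the table, Rhox4 had 2 and 1 reads in the WT libraries, 17 and 47 in those of C54Y and 49 and 59 in those of KO. The 8 copies of Rhox2 had 0 and 1 reads in the WT libraries, 1 and 10 in those of C54Y and 12 and 17 in those of KO. Rhox8, a gene of the Sertoli cells that nurse male germ cells, had 1 and 5 reads in WT and 2 and 2 in KO, Rhox12 had at most 6 reads, and Rhox3a had 2 reads in 1 WT library and 0 elsewhere. A read count of 3 corresponds to 2.04 to 3.90 normalized counts in these libraries, so differences among the faintest genes were not detectable at this depth.

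**Figure D3:**
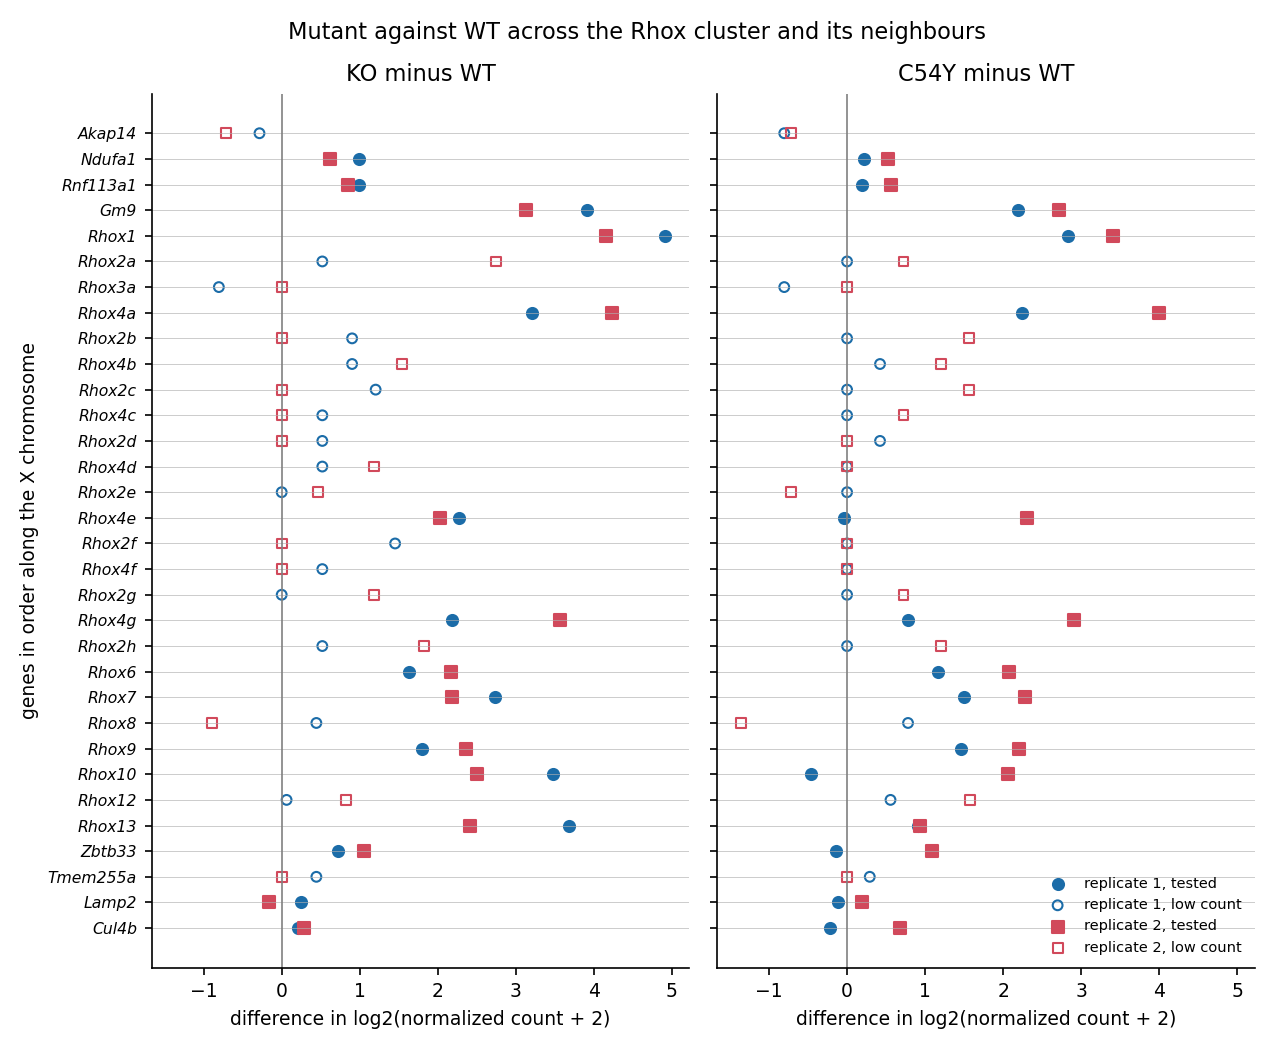
Difference between KO and WT (left) and C54Y and WT (right) in log2(normalized count + 2), with genes in RefSeq order along the X chromosome. Shown are the 24 Rhox genes and the 4 nearest genes of the table on each side, Gm9 among them. Circles are replicate 1, squares replicate 2, and open symbols are genes below the count filter. Rhox1 stands at 4.91 and 4.15 in KO, and Lamp2 beyond the far end lies near 0 (0.24 and -0.16).

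The neighbours of the row behaved in more than 1 way. Gm9, the gene of the table next to Rhox1 and outside the homeobox family by name, had 23.2, 113 and 376 normalized counts in WT, C54Y and KO of replicate 1 and 90.1, 603 and 801 in replicate 2. It rose in KO by 3.52 ± 0.32 (adjusted p = 0.00047) and with the missense change by 2.45 ± 0.32 (adjusted p = 0.00876). Its level in KO was 16.2 times (11.3 to 24.2) and 8.89 times (6.93 to 11.5) that of WT within the replicate numbers. Gm9 shared 0 of its 768 windows of 50 bases with another gene, and its ratio to Rhox1 went from 1.24 and 1.03 in WT to 0.607 and 0.503 in KO. Next to Gm9 lies Rnf113a1, a splicing factor gene, which rose by 0.92 in KO (adjusted p = 0.0218, lost without WT replicate 2 at 0.116), and then Ndufa1, a subunit gene of respiratory complex I, which rose by 0.81 (adjusted p = 0.0198). Neither was called in C54Y (0.38 and 0.37, adjusted p = 0.562 and 0.47). Over 396 X-linked genes (chosen as described below) the median KO difference was 0.621, and 155 of them were called up. Rises like those of Rnf113a1 and Ndufa1 were therefore common on the X chromosome in KO. Beyond Rhox13, the transcription factor gene Zbtb33 stood at 0.89 (adjusted p = 0.0967), the lysosomal gene Lamp2 at 0.04 (0.918) and the ubiquitin ligase gene Cul4b at 0.25 (0.456) in KO. All of these were lower in the replicate 2 libraries, unlike the Rhox members, with log2 differences of -4.71, -2.86 and -2.54 from replicate 1. Zbtb33 had only 13, 29 and 29 reads in WT, C54Y and KO of replicate 2.

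Promoter sequences are shown for Rhox1, for Gm9, which rose with it, and for Rhox13 at the other end of the row, which rose in KO and was not called in C54Y. Each is the 250 bases before the RefSeq start on the gene's strand (GRCm38.p6), with CG dinucleotides, the site of DNA methylation, in capitals: Rhox1 at chrX:37222259-37222508 on the minus strand, Gm9 at chrX:37211042-37211291 on the minus strand and Rhox13 at chrX:38120590-38120839 on the plus strand. An entry matched 18 of the 24 Rhox genes, and the promoters of Rhox6 and Rhox9 were not analysed here.
Rhox1: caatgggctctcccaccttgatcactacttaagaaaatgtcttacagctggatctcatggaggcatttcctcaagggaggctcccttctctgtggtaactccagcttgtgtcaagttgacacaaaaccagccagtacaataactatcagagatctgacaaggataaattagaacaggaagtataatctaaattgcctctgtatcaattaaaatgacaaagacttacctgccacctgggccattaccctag
Gm9: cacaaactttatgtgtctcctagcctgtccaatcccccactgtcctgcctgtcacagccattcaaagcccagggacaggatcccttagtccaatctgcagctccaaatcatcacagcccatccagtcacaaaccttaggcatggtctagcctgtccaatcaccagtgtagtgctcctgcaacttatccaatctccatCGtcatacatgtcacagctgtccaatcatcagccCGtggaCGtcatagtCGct
Rhox13: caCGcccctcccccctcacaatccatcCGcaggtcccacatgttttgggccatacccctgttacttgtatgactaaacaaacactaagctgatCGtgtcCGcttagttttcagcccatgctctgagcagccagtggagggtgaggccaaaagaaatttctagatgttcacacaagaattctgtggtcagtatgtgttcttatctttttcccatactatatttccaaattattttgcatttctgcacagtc
The Rhox1 sequence held 0 CG dinucleotides, as did 7.87% of 32851 promoters of the same length. Gm9 and Rhox13 held 4 each, against a median of 6. Counted but not shown were Rhox10, Rhox4a and Rhox2a, with 8, 6 and 5 CG dinucleotides. Motifs were searched on both strands. CACGTG, the E-box bound by MGA with MAX, was in none of the 3 sequences and in 6.02% of all promoters. TCCCGC, a site of the repressor E2F6, was in none of the 3 and in 16.9% of all. TNNGGCA, the core described for THAP1, occurred once in the Gm9 sequence, in neither of the others shown and in 34.7% of all promoters. It also occurred once before Rhox10, and neither before Rhox4a nor before Rhox2a. A match in so common a motif is a description only.

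**Figure D4:**
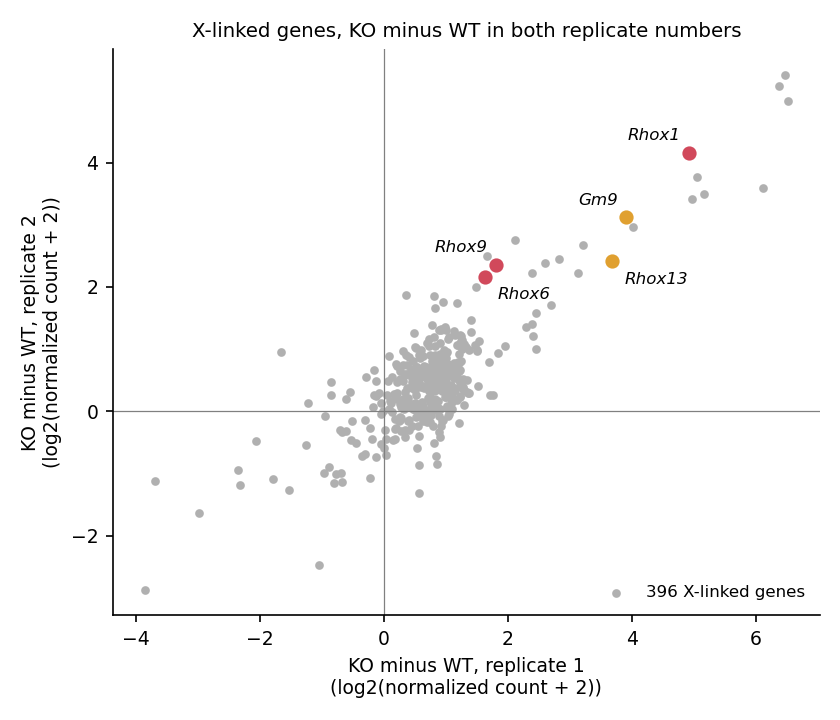
KO minus WT in log2(normalized count + 2) for each of the 396 X-linked genes averaging 3 CPM or more, replicate 1 on the horizontal and replicate 2 on the vertical axis, with Rhox1, Rhox6 and Rhox9 in red and Gm9 and Rhox13 in orange. The medians are 0.765 and 0.466, 300 of the 396 genes lie above 0 on both axes, and the 5 named genes lie above and to the right of most of them.

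The X chromosome as a whole was higher in the mutants, so the members were also set against it. The 396 X-linked genes that averaged 3 CPM (reads scaled to a common library size) or more were used. Their median log2 difference was 0.621 in KO and 0.262 in C54Y, against 0.036 in KO over 10797 autosomal genes. Taken against the X-linked median, Rhox1 stood at 3.91, Rhox6 at 1.28 and Rhox9 at 1.46 in KO, and at 2.86, 1.36 and 1.57 in C54Y. Ranked among the 396, Rhox1 was at place 5, Rhox9 at 19 and Rhox6 at 21 in KO, and at 6, 12 and 13 in C54Y. Rhox1 and Rhox9 stood past the X-linked 95th percentile (1.93 in KO and 1.08 in C54Y) in both mutants. Rhox6 was just below it in KO. These places use the comparison by which the genes were chosen and are a description only. Between KO and C54Y the X-linked median was 0.325, above the differences of Rhox6 and Rhox9 themselves. The place of Rhox6 and Rhox9 in that comparison was 225 and 243 of 396.

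Genes with the most similar profile over the 6 libraries were found by the Euclidean distance between centred log2 values, as a description. The libraries share the difference between replicate numbers that 64.9% of genes showed. Nearest to Rhox6 was Rhox9 (distance 0.381, Pearson r = 0.994), and nearest to Rhox9 was Rhox6. After it came Vpreb1, a gene of the pre-B-cell receptor, for Rhox6 (0.775, r = 0.976) and for Rhox9 (0.626, r = 0.984). Ndufa4l2, a mitochondrial gene, Apom, the gene of apolipoprotein M, and Ocel1 followed for Rhox6 (0.777 to 0.829), and Gstp2, a glutathione transferase gene, Apom and Tspan32, a tetraspanin gene, followed for Rhox9 (0.665 to 0.732). Nearest to Rhox1 were Tmem92, a membrane protein gene (0.677, r = 0.997), Oas1a, an interferon-induced antiviral gene (0.962, r = 0.997), Fam25c (1.04), Gm9 (1.08, r = 0.998) and Aurkc, a meiotic kinase gene (1.21). Rhox6 and Rhox9 came only at places 90 and 71 in the order of likeness to Rhox1 (distances 2.72 and 2.57). Rhox7 came at place 50 (2.31, r = 0.991) and Rhox13 at place 86 (2.67). By this measure the nearest genes, Gm9 and 4 genes of other chromosomes, were closer to Rhox1 than these Rhox genes were.

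Enzymes that write and read DNA methylation, the mark known to silence the row, were examined next. For comparison, 8.9% of all tested genes rose and 7.41% fell in KO, and 1.36% were called in C54Y. Of 11 tested genes 4 rose and 2 fell in KO against WT, with a median of 0.318 against 0.0284 over all tested genes; all 11 missed the threshold in C54Y, where the median was 0.224 against -0.00206. The counts were sensitive to single libraries: 2 rose in KO without WT replicate 1 and 7 without KO replicate 2, the KO median was 0.00445 without KO replicate 1, and C54Y had 2 rising and 2 falling without KO replicate 1, 2 rising and 1 falling without KO replicate 2 and 1 falling without WT replicate 1. Dnmt3b, a de novo methyltransferase, fell in KO by 1.32 (adjusted p = 0.000937), from 12029.6 and 26674 normalized counts in WT to 5063 and 10158 in KO. It stood at 11103 and 17997 in C54Y (-0.34, adjusted p = 0.364), and the difference between KO and C54Y was called (-0.98, adjusted p = 0.0455, lost without C54Y replicate 1 at 0.38). Dnmt3a, the other de novo enzyme, fell in KO by 0.93 (adjusted p = 0.0063). Tet2, an enzyme that oxidizes methylated cytosine, rose by 1.26 (adjusted p = 0.028), with 1.96 in replicate 1 and 0.56 in replicate 2. Trim28, a corepressor, rose by 0.49 (adjusted p = 0.00947). Uhrf1, which brings the maintenance enzyme to replicated DNA, rose by 0.59 (adjusted p = 0.0132), and Zfp57, which protects methylation at imprinted regions, by 0.68 (adjusted p = 0.0216); without WT replicate 1 these 2 calls were lost (0.0616 and 0.0772). Dnmt1, the maintenance enzyme, stood at 0.33 (adjusted p = 0.13) and Dnmt3l, a cofactor of the de novo enzymes, at 0.11 (0.659). How the de novo enzymes bear on the Rhox genes was not tested, and no methylation was measured.

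Repressors that act through histones were examined in the same way. Of all tested genes 16.3% were called in KO (8.9% up and 7.41% down) and 1.36% in C54Y. A list count near these shares is background and no result about the list. Of 16 histone methyltransferase, heterochromatin and deacetylase genes 1 was called in KO, the X-linked demethylase gene Kdm5c, which rose by 0.98 (adjusted p = 0.00175) from 6078 and 6747 in WT to 11915 and 13425. Setdb1, the methyltransferase of histone H3 lysine 9 that silences germline genes and retroelements, stood at -0.32 (adjusted p = 0.205). The list median was 0.0509, close to that of all genes, but 4 genes rose without KO replicate 2, 4 fell without KO replicate 1 and the median was -0.0369 with TMM scaling. Of 14 genes of the noncanonical Polycomb complex PRC1.6 and its partners, which represses germline genes in ES cells, 2 rose in KO: L3mbtl2 by 0.67 (adjusted p = 0.0102) and Wdr5 by 0.51 (adjusted p = 0.0318, lost without WT replicate 1, C54Y replicate 1 or C54Y replicate 2, and 0.053 with TMM scaling). Without KO replicate 2 the list had 7 rising, and without KO replicate 1 it had 1 falling. Pcgf6, Mga and E2f6, which also belong to the complex, were not called, at -0.05 (adjusted p = 0.893), 0.20 (0.587) and 0.13 (0.641). Of 9 genes of PRC2, which methylates lysine 27, 1 was called, Phf19 (0.87, adjusted p = 0.0165, lost without WT replicate 2 at 0.189), and 5 rose without KO replicate 2. Of 7 linker histone genes 0 were called, with Hist1h1a at 1.08 (adjusted p = 0.138), while 1 rose without WT replicate 2 or KO replicate 2 and 1 fell without KO replicate 1. In C54Y limma and edgeR with the block called 0 genes of these 4 lists. Without KO replicate 1 limma called 2 histone repressors, 1 PRC1.6 gene, 1 PRC2 gene and 1 linker histone up and 1 linker histone down, and single genes were also called without KO replicate 2 or WT replicate 1.

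Germline genes elsewhere in the genome give the setting of the Rhox genes, in lists drawn up with earlier results of these data known. Of 20 tested X-linked germline genes 15 rose in KO and 7 in C54Y, with 0 falling, and the medians were 3.54 and 2.48. Among all 396 X-linked genes averaging 3 CPM or more, 155 rose in KO and 16 in C54Y. Of all tested genes 8.9% rose and 7.41% fell in KO, while 0.962% rose and 0.399% fell in C54Y. In 4 of the 20 neither WT library had more than 1 read, so these passed the filter through the mutants, and the counts and medians describe the genes that passed and not the whole list. The C54Y count was 13 without KO replicate 1, 14 without KO replicate 2 and 11 without WT replicate 2, the C54Y median was 1.63 without WT replicate 1, and 1 gene fell in KO without WT replicate 2. Xlr5b, Xlr5a, Xlr3a and Xlr3c, of a lymphocyte and germ cell gene family, led with 5.94, 5.80, 5.75 and 5.39; these are multicopy genes that share reads, and 9 of the 20 tested genes are Xlr genes. Of 30 tested autosomal germline genes 12 rose and 2 fell in KO, and 3 rose in C54Y, with medians of 0.958 and 0.249. Without KO replicate 1 or KO replicate 2 the C54Y count was 9, without C54Y replicate 2 it was 2, and over the fits without 1 library the medians ranged from 0.466 to 1.46 in KO and from -0.065 to 0.566 in C54Y. The 2 that fell were Tdrd1 (-1.18, adjusted p = 0.0293) and Rec8 (-0.76, adjusted p = 0.0158); WT replicate 2 was needed for both calls, KO replicate 2 for Tdrd1 and WT replicate 1 for Rec8. Smc1b, the meiotic cohesin gene, rose in both mutants (3.46 with the deletion at an adjusted p of 0.0029, and 3.25 with C54Y at 0.0166, though 0.0512 by edgeR). Tuba3a and Tuba3b, genes of testis tubulin that share reads, rose by 3.22 and 3.45 in KO, and Sycp1, of the synaptonemal complex that joins paired chromosomes, rose by 2.61 (adjusted p = 0.00237) and stood at 1.77 in C54Y (adjusted p = 0.051). Rhox1 at 4.53 lay above the KO median of the X-linked germline genes that passed the filter, and Rhox6 and Rhox9 lay below it. Genes and list were both chosen with results of these data known, so this is a description only.

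Markers of the cell types in which Rhox genes are normally active were read as well. The shares of all tested genes were 8.9% rising and 7.41% falling in KO, and 0.962% and 0.399% in C54Y. For trophoblast, the placental lineage, 2 of 18 tested markers rose and 4 fell in KO, 1 fell in C54Y, and the summed level was 44210 to 58530 normalized counts in WT, 31160 to 35680 in C54Y and 21530 to 26050 in KO. Without 1 library the list had 0 (WT replicate 2) to 3 rising and 3 to 7 (KO replicate 2) falling in KO, and in C54Y 0 to 3 rising and 0 (WT replicate 2 or C54Y replicate 2) to 7 (KO replicate 1) falling. Cdx2, a founding transcription factor of the lineage, fell by 2.30 in KO (adjusted p = 0.0334, lost without KO replicate 1 at 0.0957), and Hand1, a factor of giant cells, by 1.87 (adjusted p = 0.00493). Peg10, an imprinted gene needed for the placenta, fell by 1.05 (adjusted p = 0.00188), and Krt7 was the fourth to fall (0.038, lost without WT replicate 1 or either C54Y library). The 2 that rose were the transcription factor genes Gata2 and Tfap2c (adjusted p = 0.0353 and 0.0244 with all libraries). Leaving out WT replicate 2 ended both calls, as leaving out WT replicate 1 or either C54Y library did for Gata2. The keratin genes Krt18 and Krt8 stood at -3.49 and -3.42 (adjusted p = 0.0768 and 0.09). The giant cell and spongiotrophoblast hormones and markers Tpbpa, Prl3d1 and Prl2c2 had no more than 3 reads in any library. The summed trophoblast level was lower in both mutants than in WT, though such a sum follows its most abundant genes. Its relation to the Rhox genes was not tested. For germ cells, 5 of 9 tested markers rose in KO and 1 in C54Y, with medians of 0.737 and 0.507 and a summed level of 9090 to 9700 in WT, 10310 to 14420 in C54Y and 12970 to 15780 in KO. Prdm14, a regulator of germ cell specification that ES cells also express, rose by 2.34 in KO (adjusted p = 0.000453), and the C54Y difference was 1.49 (adjusted p = 0.0128, lost without C54Y replicate 2 at 0.187), and Dazl, an RNA-binding protein gene of germ cells, rose by 1.88 in KO (adjusted p = 0.019). Prdm1 (0.96) and Nanos3 (1.29) were called too, and both lost the call without WT replicate 1, as Nanos3 did without KO replicate 2. The KO count was 3 without WT replicate 1, and in C54Y 0 rose without C54Y replicate 2, 2 without WT replicate 1 and 4 without KO replicate 1 or KO replicate 2. Ddx4, the germ cell helicase gene, stood at -0.14 (adjusted p = 0.8).

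Markers of gonadal somatic cells, endoderm and the feeder cells were also read. Their counts stand beside the same shares of all tested genes (in KO 8.9% rising and 7.41% falling, in C54Y 0.962% and 0.399%). Of 7 tested gonadal somatic markers 2 fell in KO, Wt1 by 1.63 (adjusted p = 0.00531) and Clu by 1.08 (adjusted p = 0.0454, lost without WT replicate 1, KO replicate 1 or C54Y replicate 2), and the summed level was 1812 to 2699 in WT and 903 to 1314 in KO. Of 13 tested endoderm markers 10 fell in KO and 8 in C54Y (medians -2.20 and -1.39), led by Cubn, an endocytic receptor gene, at -3.84, and Foxa2, a lineage transcription factor gene, at -3.03. Without C54Y replicate 2 only 4 fell in C54Y. Their summed level was 35640 to 53580 in WT, 27030 to 28670 in C54Y and 23610 to 29320 in KO. Of 23 tested fibroblast markers, which trace the feeder cells, 2 fell in KO and 1 in C54Y, with Pdgfra at -1.83 and -2.05; leaving out KO replicate 2 gave 13 falling in KO and WT replicate 2 gave 6. The summed feeder level was 52340 to 61810 in WT, 61310 to 72450 in C54Y and 34930 to 69990 in KO, so it stood lowest in KO replicate 1. Of 12 ES markers 8 rose in KO and 1 in C54Y (medians 0.763 and 0.309), the C54Y count being 6 without KO replicate 1 or KO replicate 2, 4 without WT replicate 1 and 3 without C54Y replicate 1. Zfp42, a marker of the naive state, rose by 2.98 in KO (adjusted p = 0.000187), and the C54Y difference was 2.44 (adjusted p = 0.000877). The part of these other cell types in the Rhox result was not tested.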

How the data were processed

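RNA was sequenced from 6 libraries of mouse ES cells. The authors deposited 1 table of normalized counts (a signal per gene: reads divided by a size factor). CASAVA, Trimmomatic, TopHat2 2.1.0, HTSeq, DESeq2 and mm9 are named in the submitters' processing notes; strand, annotation and filters are not given in the sources used here. The values gave whole reads for 100% of entries (tolerance 1e-06). Genes with at least 10 normalized counts in at least 2 libraries (15287 of 19713) were tested on log2(normalized count + 2), which understates changes of low genes, with limma 3.58.1 (R 4.3.3, robust trend), and with edgeR 4.0.16 and DESeq2 1.42.0 on the whole reads as alternatives. All p-values were adjusted over all tested genes at 0.05, and the limma code was checked on simulated data.

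The design fitted genotype alone, with the replicate number as a block as an alternative. Same-numbered libraries deviated together (correlations of 0.907 for WT and C54Y, 0.869 for WT and KO and 0.895 for C54Y and KO over 15287 genes), so the numbers pair the samples, and blocked values are printed where they change the call. Each number holds 1 library of each genotype. Ratios carry 95% exact intervals for counting error only. Chromosomes, gene order, transcripts and promoters came from GRCm38 annotation, matched by symbol, and not from the authors' build. The members and all gene lists were chosen with earlier results of these data known. Named beside the members were the other Rhox genes, up to 4 neighbours a side, up to 4 genes of each list with the largest KO difference, preset regulators and the 5 most similar profiles. Other list genes that are named were chosen after their values were seen.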

Additional observations from a re-analysis of the deposited data

How the results depend on the processing

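Without the replicate block limma called 0 genes in each genotype comparison, also in every fit without 1 library. With the replicate block it called 2494 genes for KO against WT (54.6% higher in KO), 208 for C54Y against WT and 29 for KO against C54Y. TMM scaling with the block, chosen after seeing the data as were all blocked leave-one-out fits, gave 2432 (44.8% higher), 196 and 29. With the block, edgeR gave 2457, 198 and 101, and DESeq2 gave 2522, 479 and 453; without it DESeq2 gave 235, 28 and 3. Leaving out 1 library with the block gave 1749 to 4861, 69 to 1818 and 7 to 2831; between these ends lay 1858, 2308, 4036 and 2179 for KO against WT without replicate 1 of WT, C54Y and KO and replicate 2 of C54Y, 543, 248, 195 and 1619 for C54Y against WT without WT 1, C54Y 1, WT 2 and KO 2, and 825, 913, 512 and 80 for KO against C54Y without WT 1, KO 1, WT 2 and C54Y 2. For replicate 2 against replicate 1, 9917 genes were called, and every alternative run was within 1.5 times of that. The causes were not tested.

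Set against the X-linked median, KO minus WT was 3.91 for Rhox1, 1.28 for Rhox6 and 1.46 for Rhox9. Without 1 library and without the block, so that the replicate numbers are unbalanced, KO minus WT ranged over 3.47 to 5.59, 0.83 to 2.97 and 1.09 to 3.07, and C54Y minus WT over 1.78 to 4.46, 0.36 to 2.88 and 0.75 to 2.91, in the same order of genes. With the block the ranges were 4.01 to 5.05, 1.54 to 2.26 and 1.76 to 2.40 for KO, and 2.65 to 3.59, 1.26 to 1.98 and 1.51 to 2.15 for C54Y (Rhox1 was 3.59 without C54Y replicate 1 and 2.65 without C54Y replicate 2). For KO minus C54Y, Rhox1 ranged from 0.07 to 2.75 without the block and 0.89 to 1.93 with it, and was called by DESeq2 with the block (1.42) and by limma with the block when WT replicate 1 (1.41) or 2 (1.41), C54Y replicate 2 (1.89) or KO replicate 2 (1.93) was left out. Without the block Rhox6 turned negative without C54Y replicate 1 (-0.98, or -0.0399 with the block), without KO replicate 2 (-0.79, or 0.24 with the block) and against the X-linked median (-0.0447). Rhox9 did so without C54Y replicate 1 (-0.83, or 0.0167 with the block), without KO replicate 2 (-0.74, or 0.16 with the block) and against the X-linked median (-0.0753); its highest value was 1.33, without C54Y replicate 2. TMM moved the median of all genes by less than 0.1. Depth limits the Rhox genes with few reads, where 3 reads equal 2.04 to 3.90 normalized counts.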

Other observations

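Homeobox genes outside the Rhox row were read from a list drawn up with earlier results of these data known. Obox6, a gene of oocytes and early embryos, had 0 reads in both WT libraries, 8 and 9 reads in C54Y and 20 and 14 in KO. Dux, an activator of the earliest embryonic genes, had 0 and 2 reads in WT, then 10 and 9 for C54Y and 17 and 28 for KO. Both passed the count filter through the mutant libraries, so no test is given. Crxos, also active in early embryos, stood at 14.9 and 24.4 normalized counts in WT and 46.9 and 54.7 in KO (1.32, limma adjusted p = 0.039 with the block), which was not called when either WT library, KO replicate 1 or C54Y replicate 2 was left out. Esx1, an X-linked homeobox gene of the placenta and testis, stood at 295 and 562 in WT and 181 and 454 in KO (-0.50, adjusted p = 0.164).

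Of 5 tested genes that mark X dosage 0 were called in KO or in C54Y, with medians of -0.232 and 0.0247 (limma with the replicate block, as edgeR with it; without KO replicate 2, 2 rose in KO and 1 in C54Y, without WT replicate 2, 1 rose in each, and without KO replicate 1, 1 fell in KO and 1 rose in C54Y). Xist, the RNA that coats an inactive X chromosome, stood at 117 and 12.9 normalized counts in WT, then 410 and 18.2 for C54Y and 341 and 17.8 for KO (KO minus WT 0.97, adjusted p = 0.118).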
